A study of Rattus norvegicus with 6 samples.

Results

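The genes described here are those of voltage-gated sodium channels, voltage-gated calcium channels, hyperpolarization-activated (HCN) channels, transient receptor potential (TRP) channels and CLC chloride channels. They were chosen by gene symbol alone, as every entry of the 4 deposited gene lists whose symbol begins with Scn, Cacna, Cacnb, Cacng, Trpa, Trpc, Trpm, Trpv or Clcn and continues with a member designation, or is an Hcn symbol with a number. The rule found 70 of the 22427 entries listed in any library, namely 14 sodium channel, 25 calcium channel, 4 HCN, 20 TRP and 7 CLC entries, each under a single gene ID. The protein domains deposited beside the symbols fitted the families. Of the 70 members, 38 carried an ion transport domain, the 7 Clcn genes a chloride channel core, and the 4 sodium channel β subunits an immunoglobulin V-set domain. The exception was Trpc4ap, which carried a domain of unknown function and encodes a protein that binds a TRPC channel, not a channel subunit. RefSeq names 77 rat genes that match the rule, and 7 of them had no entry in any of the 4 lists.

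Voltage-gated sodium channels carry the rapid upstroke of the action potential. Voltage-gated calcium channels couple the action potential to calcium entry and, in heart muscle, to contraction. HCN channels carry the pacemaker current, TRP channels are cation channels that respond to temperature, chemical ligands, calcium or stretch, and CLC proteins carry chloride across the surface membrane or across endosomes and lysosomes. The pore-forming α subunits of the sodium and calcium channels are joined by auxiliary subunits (β; α2δ, β and γ) that set their surface level and gating. Trimethylation of lysine 27 of histone H3 (H3K27me3) is the repressive mark laid down by Polycomb repressive complex 2, and it is typically found at genes that a cell type does not use, which in heart muscle include many neuronal channel genes.

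The study compared groups of primary cardiomyocytes from newborn Sprague Dawley rats, with 2 H3K27me3 libraries from cells treated with 5 mM α-ketoglutarate (α-KG) for 24 h and 2 from cells given PBS for the same time. α-KG is a tricarboxylic acid cycle metabolite and a cosubstrate of histone demethylases. Both groups were grown in serum-containing medium, and no genetic change was reported for either. The values are lists of genes with a peak, so each gene is listed or not listed in a library. How strong a peak was, where in or near the gene it lay and how many reads supported it are unknown, and an absent gene may still carry the mark below detection. The labels do not say whether replicates were separate cultures. The α-KG libraries listed 18120 and 19181 genes and the control libraries 17245 and 18442 (exact two-sided permutation test, p = 0.667; 2 against 2 libraries cannot give a p below 0.333). No single gene can therefore pass a test in this design, and the members are described by counts set beside those of all entries. Of 8 cardiomyocyte marker genes, 4 (Tnnt2, Actc1, Actn2 and Nkx2-5) were listed in all 4 libraries, Ryr2 only in both controls, Myh7 only in α-KG 2 and Nppa only in control 2, and Myh6 had no entry. Of the markers of other cells, 9 were listed in all 4 libraries, which were 2 of 4 fibroblast, 3 of 3 endothelial, 1 of 3 smooth muscle, 1 of 3 immune and 2 of 3 neuronal genes. Of the others, the neuronal gene Tubb3 was in both α-KG lists and no control list, so the neuronal markers numbered 3 and 3 in the α-KG libraries and 2 and 2 in the controls, and its part in the channel gene differences was not tested. Col1a1 was missing from α-KG 1 and Cnn1 from control 1, and Col1a2, Acta2, Cd68 and Cd3e had no entry. A listing does not show which cells carried the peak, so these lists do not test the cell type.

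Most of the channel genes carried a listed H3K27me3 peak whatever the treatment. Of the 70 members, 55 (78.6%) were listed in all 4 libraries, against 62.8% of all entries and 63.1% of the entries that have a symbol. The α-KG libraries listed 66 and 65 members and the control libraries 57 and 61. Both α-KG libraries thus stood above both controls, with means of 65.5 ± 0.707 and 59.0 ± 2.83 members (SD, n = 2 each), a difference of 6.5 members or 11.0% of the control mean. For all entries the difference was 4.52% of the control mean and the groups overlapped, since control 2 listed more genes than α-KG 1. For the entries that have a symbol it was 6.11%, with the same overlap. As a share of each library's own list, the members made up 0.364% and 0.339% in α-KG and 0.331% in each control library.

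**Figure D1:**
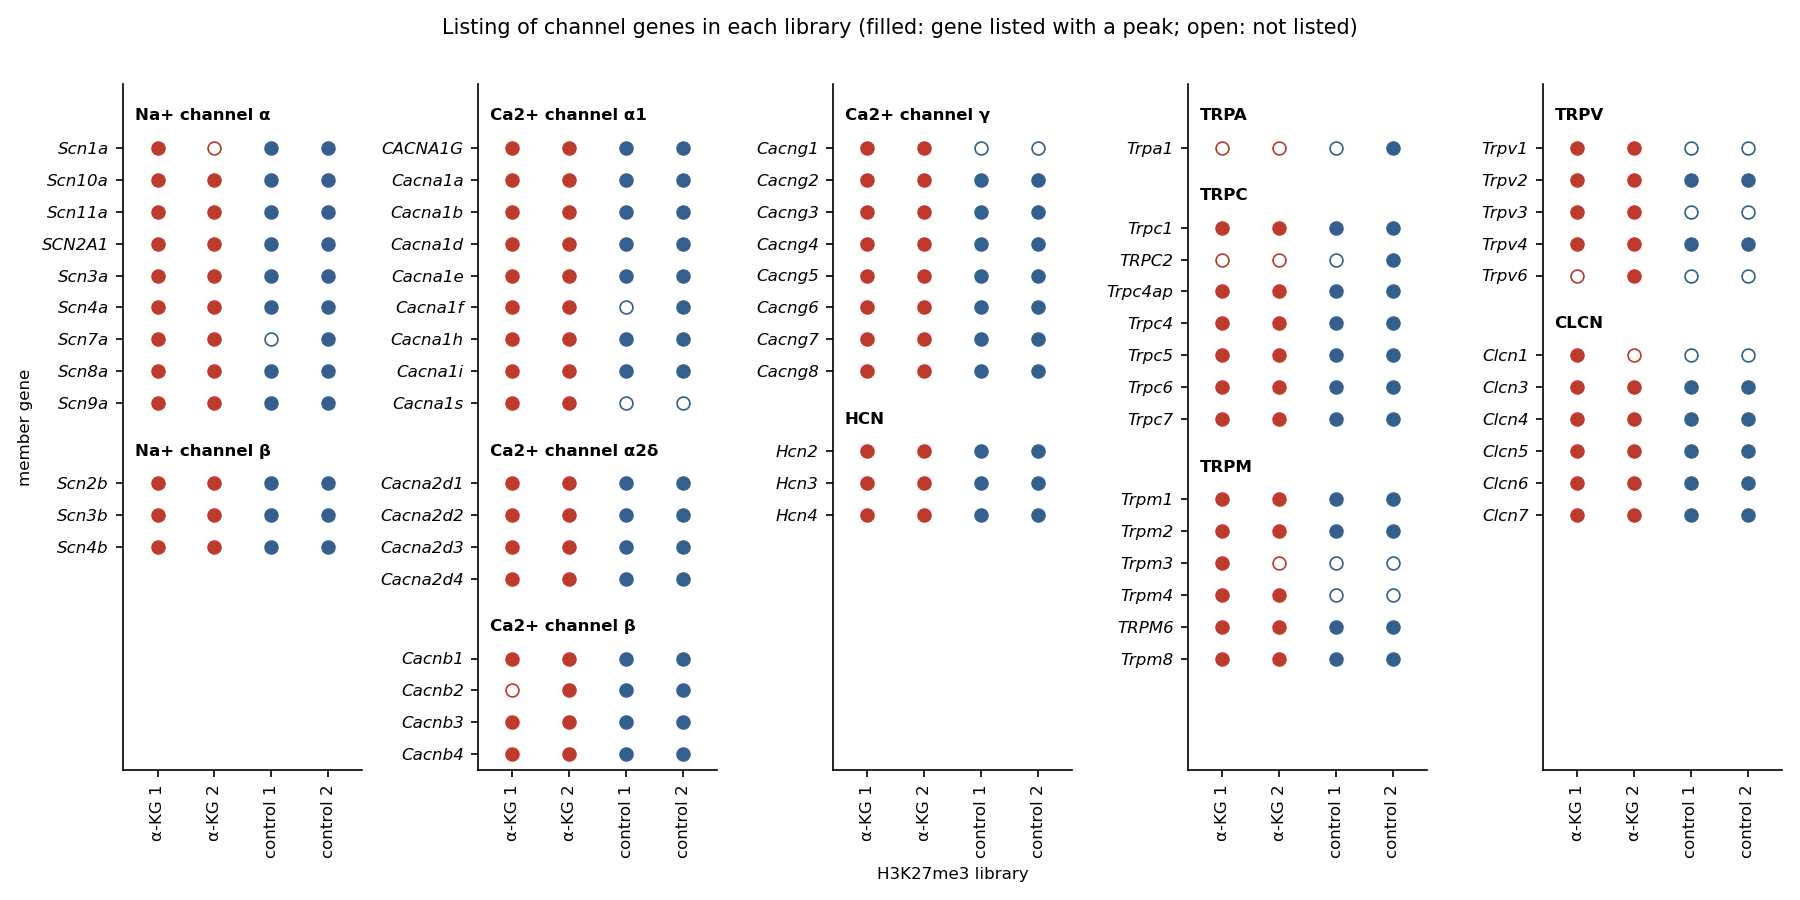
Listing of channel genes (rows, by family) in the 4 H3K27me3 libraries (columns, α-KG in red left of control in blue), where a filled circle means that the gene was listed with a peak. The genes filled in every column include the HCN, sodium channel β and α2δ genes shown, and Cacna1s, Cacng1, Trpm4, Trpv1 and Trpv3 are filled in both red columns and open in both blue ones.

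The listing of 6 members divided fully by group, all in the same direction. Cacna1s, Cacng1, Trpm4, Trpv1 and Trpv3 were among those that appeared in both α-KG lists and in no control list, a pattern called gained here. Gained members were 6 of the 63 members in both α-KG lists (9.52%), where the background was 4.48% of all entries in both α-KG lists and 4.55% of those with a symbol. The gap between these shares rests on 6 genes and was not tested. The opposite pattern, called lost here, is a gene that both control lists and no α-KG list name, and it was found in 0 of the 57 members in both control lists, where the background was 3.22% of all entries and 2.97% of those with a symbol. In a set of 57 genes a share of 0 lies close to that background. All 6 members that exactly 2 libraries listed were gained, against 28.7% of all entries listed in exactly 2 libraries.

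A gained gene stays gained by definition when 1 library is left out, so the comparison that can change is that with all entries, and leaving out 1 library added 0 to 2 members. Without α-KG 1 the gained share of members was 10.8%, below the 11.9% of all entries, whereas it was 12.1% against 6.53% without α-KG 2, 9.52% against 6.81% without control 1 and 12.7% against 11.2% without control 2. The excess over the background was thus absent without α-KG 1 and small without control 2.

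Of the gained genes, Cacna1s and Cacng1 encode parts of the same channel. Cacna1s is the pore-forming L-type subunit of skeletal muscle, where it is the voltage sensor of excitation-contraction coupling, and Cacng1 is the γ subunit of that skeletal muscle channel. Trpm4 is a calcium-activated channel for monovalent cations, variants of which are linked in humans to cardiac conduction disease. Trpv1 is the capsaicin and heat receptor of sensory neurons, and Trpv3 a warmth-sensitive channel of keratinocytes. Each of these 5 was listed in α-KG 1 and α-KG 2 and absent from control 1 and control 2, the pattern by which they were picked. The same pattern was held by 729 of the 16287 entries in both α-KG lists (4.48%). The deposited lists hold no height for these peaks, so a new peak and a peak that rose past the detection threshold cannot be told apart.

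RefSeq promoter windows, which span 250 bases before to 50 bases after a gene's start, give the start regions of some of the gained genes. Windows were found for 50 of the 70 members, 49 under the current symbol, among them 4 of the 6 gained genes. The deposited lists do not place the peaks, so whether these windows lay under a peak is unknown. The 4 gained genes with a window are shown first, on assembly GRCr8, 5′ to 3′ on the strand of the gene, with each CG dinucleotide in capitals because CpG-rich promoters are the typical sites of Polycomb binding in mammals.
Cacna1s (chr13:50045418-50045717, plus strand): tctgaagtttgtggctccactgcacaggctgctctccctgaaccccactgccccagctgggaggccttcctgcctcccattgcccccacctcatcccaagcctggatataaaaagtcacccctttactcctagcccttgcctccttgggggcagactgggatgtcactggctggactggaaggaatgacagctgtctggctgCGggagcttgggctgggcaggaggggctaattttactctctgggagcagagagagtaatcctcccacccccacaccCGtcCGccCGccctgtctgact
Trpm4 (chr1:104948187-104948486, minus strand): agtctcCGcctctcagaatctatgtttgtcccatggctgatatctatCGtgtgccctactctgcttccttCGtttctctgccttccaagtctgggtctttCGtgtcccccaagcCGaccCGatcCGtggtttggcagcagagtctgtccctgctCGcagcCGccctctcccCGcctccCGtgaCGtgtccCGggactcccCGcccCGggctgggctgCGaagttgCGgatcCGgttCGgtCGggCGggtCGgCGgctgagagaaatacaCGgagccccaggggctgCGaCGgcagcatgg
Trpv1 (chr10:58349686-58349985, plus strand): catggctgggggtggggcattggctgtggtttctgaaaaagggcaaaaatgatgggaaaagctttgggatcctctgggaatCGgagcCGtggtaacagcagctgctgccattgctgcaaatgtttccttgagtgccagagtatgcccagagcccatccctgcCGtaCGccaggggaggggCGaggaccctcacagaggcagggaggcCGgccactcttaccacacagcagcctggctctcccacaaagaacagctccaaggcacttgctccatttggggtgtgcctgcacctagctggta
Trpv3 (chr10:58381804-58382103, plus strand): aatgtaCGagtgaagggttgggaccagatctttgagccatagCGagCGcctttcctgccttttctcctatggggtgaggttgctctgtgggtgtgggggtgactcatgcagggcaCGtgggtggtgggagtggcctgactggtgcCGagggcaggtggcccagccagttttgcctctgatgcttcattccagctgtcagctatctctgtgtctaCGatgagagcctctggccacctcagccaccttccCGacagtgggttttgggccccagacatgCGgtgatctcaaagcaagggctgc
The Trpm4 window held 26 CG dinucleotides, a number that 15.2% of the 33469 RefSeq windows reached. The windows of Cacna1s, Trpv1 and Trpv3 held 4, 6 and 8, near the median of 7 over all windows. A GC box (GGGCGG on either strand), which 33.1% of all windows held, was found in the Trpm4 and Cacna1s windows and not in those of Trpv1 and Trpv3.

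The windows of members listed in all 4 libraries spanned a wider range, but they are more numerous, so the ranges cannot be compared. The window with the highest and the one with the lowest observed-to-expected CpG ratio among them are printed as the 2 ends of that range.
Scn8a (chr7:133860977-133861276, plus strand): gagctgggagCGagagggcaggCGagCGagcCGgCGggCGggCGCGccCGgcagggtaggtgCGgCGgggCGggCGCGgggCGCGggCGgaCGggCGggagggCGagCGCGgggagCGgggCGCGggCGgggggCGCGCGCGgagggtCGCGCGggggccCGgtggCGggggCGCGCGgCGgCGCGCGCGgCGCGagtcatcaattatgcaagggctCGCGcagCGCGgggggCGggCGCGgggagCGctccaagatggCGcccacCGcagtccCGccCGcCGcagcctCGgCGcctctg
Cacng5 (chr10:93336618-93336917, minus strand): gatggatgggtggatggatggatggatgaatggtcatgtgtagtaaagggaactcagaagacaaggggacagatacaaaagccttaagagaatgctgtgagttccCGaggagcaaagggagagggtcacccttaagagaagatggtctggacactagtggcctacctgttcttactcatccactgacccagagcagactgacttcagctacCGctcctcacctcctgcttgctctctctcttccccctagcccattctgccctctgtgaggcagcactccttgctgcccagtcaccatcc
The Scn8a window, the start of a sodium channel of central neurons, held 60 CG dinucleotides (observed-to-expected ratio 1.21), which 0.0538% of all RefSeq windows reached. The Cacng5 window, the start of a subunit that modulates glutamate receptors, held 2 (ratio 0.09), and 22.3% of all windows held as few. A comparison of CpG content between members in all 4 libraries and the other members is void, because windows were found for 71.4% of the members, below the 80% set as the minimum.

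Sodium channel genes were listed almost completely and none was divided by group. Of the 10 α subunit genes, the α-KG libraries listed 10 and 9 and the controls 9 and 10, and 8 were in all 4 libraries. Among these were the brain channel genes SCN2A1, Scn3a and Scn8a, the sensory neuron genes Scn9a, Scn10a and Scn11a, and the skeletal muscle gene Scn4a. Scn1a, another brain channel gene, was missing from α-KG 2 alone, and Scn7a, which encodes a sodium-sensing relative, from control 1 alone. The β subunit genes Scn2b, Scn3b and Scn4b were in all 4 libraries. Sodium channel genes lie in clusters, and neighbours can share a peak. In the RefSeq gene order, Scn3a stands next to Scn2a and Scn2b next to Scn4b, and both pairs were listed in all 4 libraries. Scn1a and Scn7a flank Scn9a, which was in all 4, so the single gaps at Scn1a and Scn7a did not extend to the gene between them.

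Calcium channel α1 genes were in all 4 libraries in 7 of 9 cases (77.8%, against 62.8% of all entries). The P/Q-type gene Cacna1a, the N-type gene Cacna1b and the R-type gene Cacna1e, which serve transmitter release and neuronal firing, were in all 4 libraries. So were the 3 T-type genes CACNA1G, Cacna1h and Cacna1i, which carry low-voltage currents. Those of CACNA1G and Cacna1h act in pacemaker and immature heart cells. Of the L-type genes, Cacna1d, which acts in the sinoatrial node, was in all 4, the retinal gene Cacna1f was missing from control 1, and Cacna1s was gained. The L-type gene of ventricular muscle, Cacna1c, had no entry. The lists held 3 entries with an L-type α1 domain, and 0 entries under any name carried the domain of the α1C subunit. The 9 α1 genes numbered 9 and 9 in the α-KG libraries and 7 and 8 in the controls, a difference that rests on Cacna1s and Cacna1f. Of all entries, 80.8% and 85.5% were listed in α-KG and 76.9% and 82.2% in the controls.

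The auxiliary calcium channel genes were listed in nearly every library. The 4 α2δ genes, Cacna2d1 to Cacna2d4, which raise the surface level of the channel, were in all 4. Of the 4 β genes, which bind the channel from the inside of the membrane, Cacnb1, Cacnb3 and Cacnb4 were in all 4, and Cacnb2, the main β subunit of heart muscle, was missing from α-KG 1 alone. Of the 8 γ genes, Cacng1 was gained, and the other 7 were in all 4. These were Cacng2, Cacng3, Cacng4, Cacng5, Cacng7 and Cacng8, most of them known as auxiliary subunits of glutamate receptors, and Cacng6, a close relative of Cacng1. Cacng1 stands beside Cacng4 and Helz in the gene order, both in all 4 libraries. Genes already listed in the controls cannot be gained, so whether a peak at Cacng1 was shared with them is unknown. Cacng6, Cacng8 and Cacng7 form a second run of neighbours, all in all 4 libraries.

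The pacemaker channel genes Hcn2, Hcn3 and Hcn4 were listed in all 4 libraries. Hcn4 is the main pacemaker channel gene of the sinoatrial node, Hcn2 is also expressed in heart muscle, and Hcn3 acts mainly in neurons.

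TRP genes held 3 of the 6 gained members, which were 3 of the 16 TRP entries in both α-KG lists (18.8%, against 4.48% of all entries), with the neighbours Trpv1 and Trpv3 among them. In all 4 libraries were 13 of the 20 TRP entries (65.0%), near the 62.8% of all entries. The α-KG libraries each listed 17 of them, and the controls listed 13 and 15. The shares listed over all entries were 80.8% and 85.5% in α-KG and 76.9% and 82.2% in the controls. TRPC genes, which encode receptor-operated cation channels, were largely uniform, with Trpc1, Trpc4, Trpc5, Trpc6, Trpc7 and the partner gene Trpc4ap in all 4 libraries. TRPC2, a channel gene of the rodent vomeronasal organ, was listed in control 2 alone. Trpa1, the irritant receptor and the only TRPA gene, was also listed in control 2 alone. Of the 6 TRPM entries, the α-KG libraries listed 6 and 5 and the controls 4 each. Trpm1, Trpm2, TRPM6 and Trpm8, the cold and menthol receptor, were in all 4, Trpm4 was gained, and Trpm3 was listed in α-KG 1 alone.

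Among families of more than 1 gene, TRPV showed the widest gap between the groups in percent. Of 5 entries, the α-KG libraries listed 4 and 5 and the controls 2 each. Over all entries the α-KG libraries listed 80.8% and 85.5% and the controls 76.9% and 82.2%. The TRPV gap was picked as the widest after seeing the data and was not tested. Trpv2 and Trpv4, an osmotically and mechanically activated channel, were in all 4, Trpv1 and Trpv3 were gained, and the epithelial calcium channel gene Trpv6 was listed in α-KG 2 alone. Trpv1 and Trpv3 are neighbours in the gene order, and the next gene, Aspa, which encodes an enzyme that cleaves N-acetylaspartate, was gained as well. On the other side, Shpk was in both α-KG libraries and in control 2. Adjacent genes can share a peak, and with Trpv1 and Trpv3 counted once the gained members number 5. Trpm5, Trpm7, Trpv5 and Trpc5os had no entry.

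**Figure D2:**
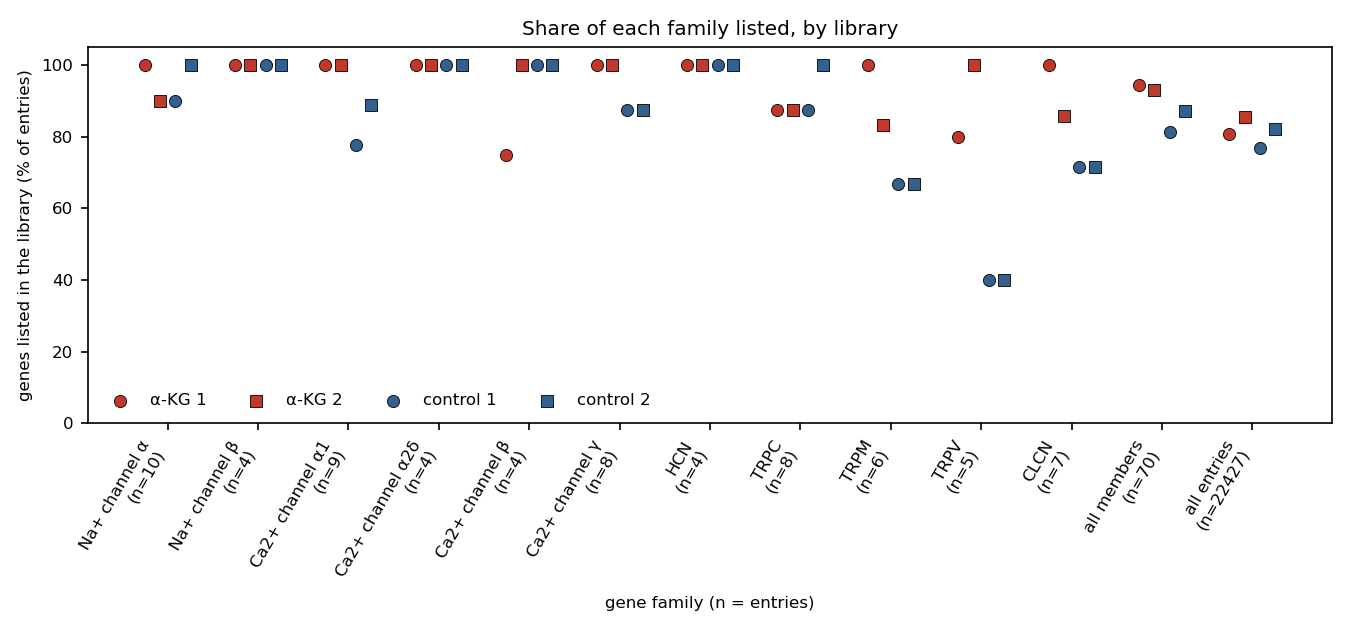
Percent of each family's entries listed in each library (y axis), with α-KG libraries in red left of control libraries in blue, circles for replicate 1 and squares for replicate 2, and n giving the entries per family (the single TRPA entry is not plotted). Sodium channel β, α2δ and HCN genes sit at 100% in all libraries, and TRPV genes at 80% and 100% in α-KG against 40% in both controls.

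CLC genes that act inside the cell were listed throughout. Clcn3, Clcn4, Clcn5, Clcn6 and Clcn7, which encode the chloride/proton exchangers of endosomes and lysosomes, were in all 4 libraries. The skeletal muscle gene Clcn1, whose product lies in the surface membrane, was listed in α-KG 1 alone, and Clcn2 had no entry.

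Of the 6 gained members, 3 had a direct neighbour, on either side in the gene order, that was listed in all 4 libraries. Over all entries, 62.8% were in all 4, but that share is for a single gene, so it is no background for this count. Cacna1s stands between Ascl5 and Kif21b, both in all 4 libraries, although Mroh3, the second gene beyond it, was gained. Trpm4 stands between Slc6a21, which was in all 4, and Hrc, a calcium-binding protein gene of the sarcoplasmic reticulum that was missing from α-KG 1 alone. Of the 10 adjacent pairs of members that both had an entry, 7 shared their listing pattern. Of these, 6 were pairs in all 4 libraries and the other was the Trpv1 and Trpv3 pair. As 78.6% of all members were in all 4 libraries, pairs that agree in this way are frequent at any distance. Whether neighbours agree more often was not tested. Gene order was taken from assembly GRCr8, which is not the build named for these data, and it may differ locally.

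**Figure D3:**
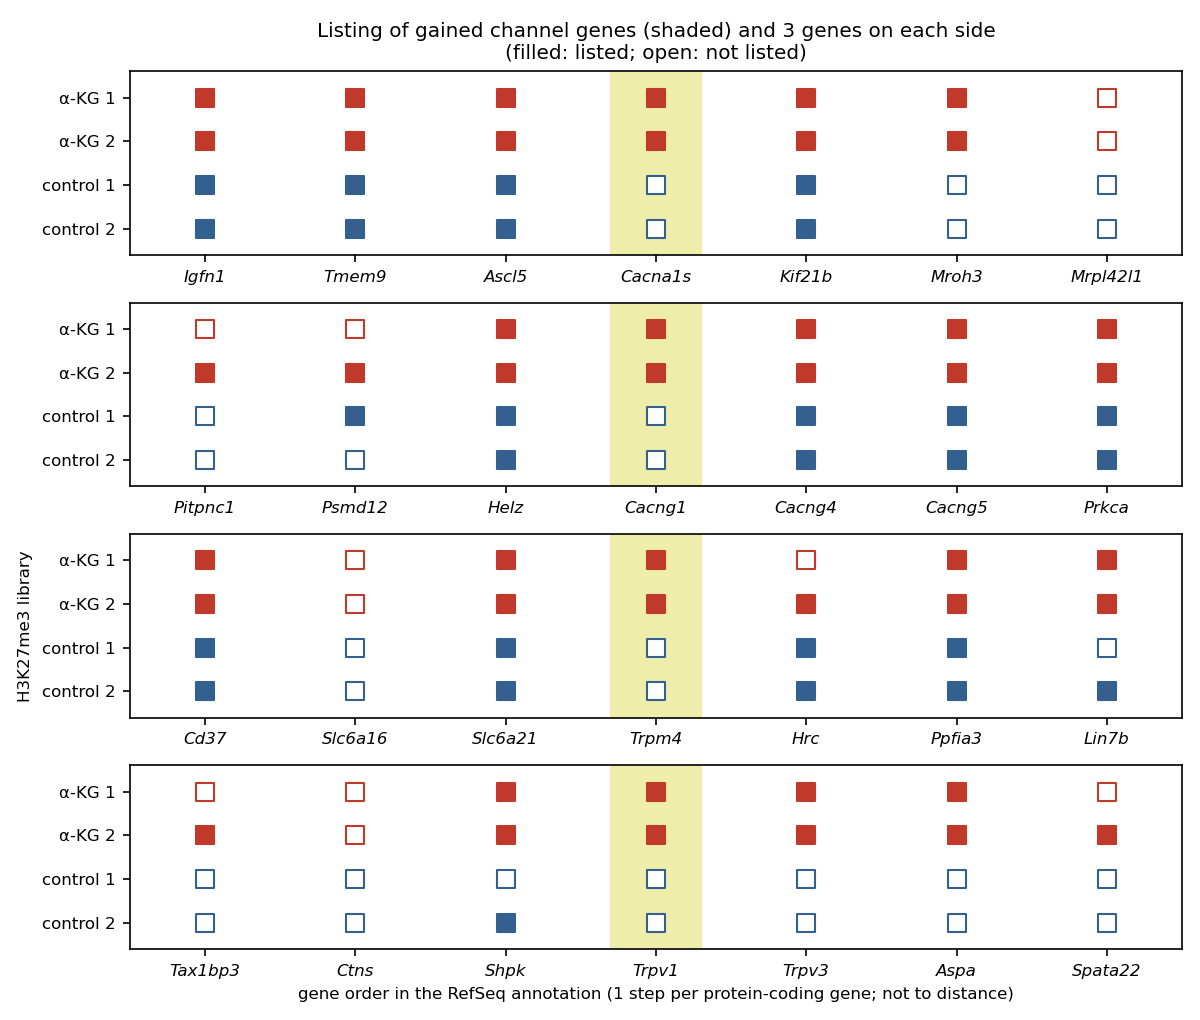
Listing of Cacna1s, Cacng1, Trpm4 and Trpv1 (shaded) and of the 3 protein-coding genes on each side (x axis, gene order and not distance) in the 4 libraries (y axis, α-KG above control). Filled squares are listed genes. Trpv1 is followed by Trpv3 and Aspa with the same pattern, whereas both neighbours of Cacna1s and of Cacng1 are filled in all 4 rows.

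Beside related gene families, the channel genes had the larger gained share. Potassium channel genes (Kcn symbols, 90 entries) were in all 4 libraries in 82 cases (91.1%), and 1 of the 84 in both α-KG lists was gained (1.19%), which was Kcnab2, an auxiliary β subunit gene. Genes of transmitter-gated channels (59 entries) were in all 4 in 51 cases (86.4%). In that family Chrnb4 was gained, 1 of 53 in both α-KG lists (1.89%), and Chrnb3 was lost, both of them nicotinic receptor subunit genes. Among the 60 entries with an ion transport domain outside the members, 54 were in all 4 libraries. Of the 57 in both α-KG lists 0 were gained. Of the 57 in both control lists Ryr2 was lost (1.75%, against 3.22% of all entries). Among the 38 members with that domain, 30 were in all 4 and 0 were lost. Gained were 2 of the 34 in both α-KG lists (5.88%), near the 4.48% of all entries. The gained channel genes Trpv1 and Trpv3 fall outside this subset, since the domains deposited for them do not include the ion transport domain. These are counts in 4 libraries, the differences between families were not tested, and without α-KG 1 the members' gained share was below that of all entries.

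**Figure D4:**
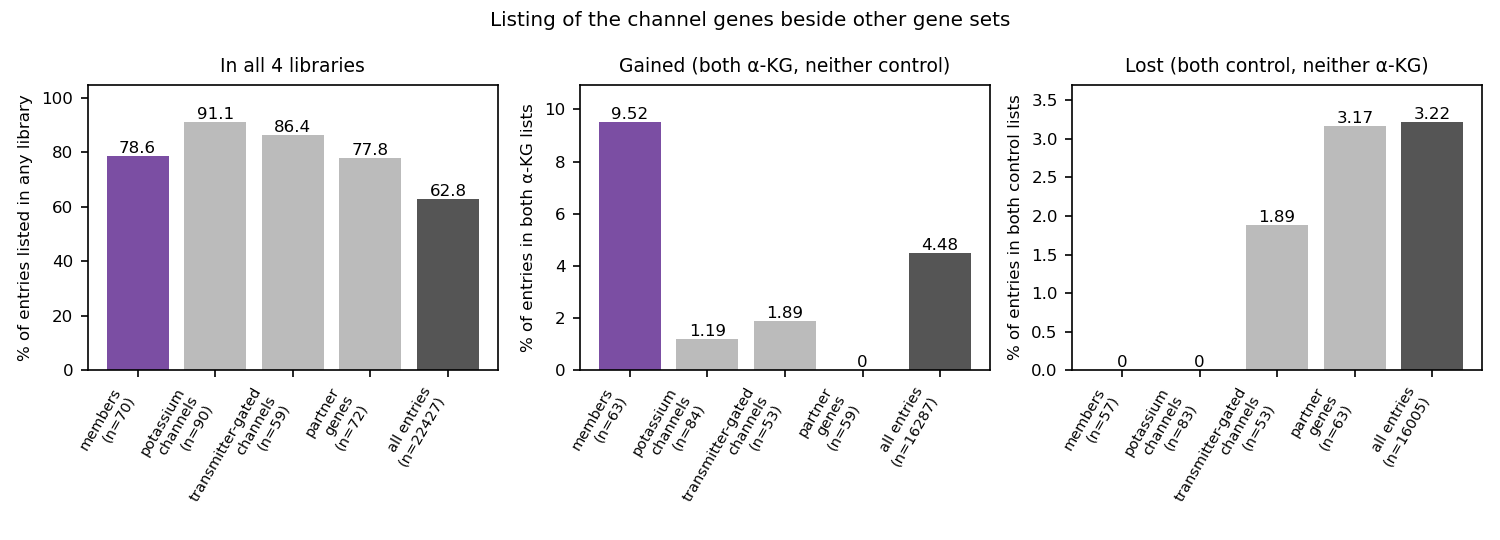
Percent of entries in all 4 libraries, gained and lost (bars, left to right panels) for the channel genes, potassium channels, transmitter-gated channels, partner genes and all entries, with n the entries each percent is taken over. The channel genes stand at 78.6% in all 4, 9.52% gained and 0% lost, against 62.8%, 4.48% and 3.22% of all entries.

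Genes whose products bind or regulate these channels, or carry like currents, were as a whole listed in overlapping numbers in the 2 groups. The 72 partner entries outside the symbol rule were listed in 60 and 68 cases in the α-KG libraries and in 64 and 67 in the controls. In all 4 libraries were 56 (77.8%, against 62.8% of all entries). Of the 59 in both α-KG lists 0 were gained, against 4.48% of all entries, and of the 63 in both control lists 2 were lost (3.17%, against 3.22% of all entries). In lists of this size both shares lie close to those of all entries. The lost ones were Cav3, the caveolin of muscle membranes that organises sodium and HCN channels, and Best1, a calcium-activated chloride channel gene.

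Sodium channel partners were in all 4 libraries in 14 of 16 cases (87.5%), among them the ankyrin genes Ank2 and Ank3. The share over all entries was 62.8%. Rangrf, whose product helps bring the cardiac sodium channel to the membrane, was in control 2 alone. With Cav3 lost, the α-KG libraries listed 14 and 14 of the sodium channel partners and the controls 15 and 16. Calcium channel regulators were in all 4 in 14 of 16 cases (87.5%), with Ahnak, Akap5 and Akap7 as examples. HCN partners were in all 4 in 6 of 8 cases (75.0%), with Kcne2, Lrmp and Mrvi1. The α-KG libraries listed 6 and 7 of them and the controls 8 and 8, again with Cav3 lost. In the other partner lists the numbers of the groups overlapped or met, and none of these differences was tested. Over all entries the α-KG libraries listed 80.8% and 85.5% and the controls 76.9% and 82.2%. Store-operated channel genes and TRP relatives were in all 4 in 9 of 10 cases, including the lysosomal channel genes Mcoln1, Mcoln2 and Mcoln3. Other chloride channel genes and partners were in all 4 in 6 of 11 cases (54.5%, below the 62.8% of all entries), including Ano1, Ano2 and Cftr. Here Bsnd and Clns1a were in α-KG 2 alone and Clic1 in α-KG 1 alone. Sodium leak, epithelial and proton-gated channels were in all 4 in 8 of 13 cases (61.5%), near that background. These included Asic1, Asic2 and Asic4, and Scnn1a was in α-KG 2 alone. Pkd2l1 and Unc80 had no entry, nor had Popdc1 under that name, although the same gene was listed as Bves in every library but α-KG 1.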

How the data were processed

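H3K27me3 chromatin immunoprecipitation libraries (2 α-KG, 2 control) were analysed, and the 2 samples titled as inputs, whose antibody label reads IgG, were not used here. The files deposited by the authors are text lists without header or numeric values (a gene ID, a symbol and protein domain names per gene with a peak), so no other unit applies. Build rn6 and the tools CASAVA, BWA and MACS2 are named, per the submitters' processing notes. How peaks were called and assigned to genes is not given in the sources used here, and read depth is unknown.

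The software was Python 3.11.15 with pandas 2.3.3, numpy 2.4.6, scipy 1.17.1 (permutation test) and, for figures, matplotlib 3.10.9. Entries are gene IDs, and 5089 of 22427 have no symbol and so cannot be members. The counting was checked on simulated lists. Members, partner lists and rules were chosen with earlier results of these data known. Members are named by family, and some genes that the rules name are not reported here. Partner genes are named when lost, gained, or listed in 1 or 0 libraries, with up to 3 per list in all 4. RefSeq tables of assembly GRCr8 gave names, gene order (3 neighbours per side) and promoter sequences. The alternatives left out each library in turn, used a replicate block, and counted channel subunits only, symbols, or adjacent members once. Gene length was not used.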

Additional observations from a re-analysis of the deposited data

How the results depend on the processing

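The difference in listed members (6.5) was 4.5 to 8.5 without 1 library. The replicate block, symbols counted and channel subunits only (without Trpc4ap, listed in all 4) had to leave it at 6.5 and the gained and lost members at 6 and 0, so they test nothing. Gained members numbered 6 to 8 without 1 library, where by definition they cannot fall below 6, and 5 with adjacent members of the same pattern counted once, a setting chosen after seeing the data. Lost members numbered 0 to 2 without 1 library, which were Scn1a without α-KG 1, Cacnb2 without α-KG 2, and Trpa1 and TRPC2 without control 1. Fewer libraries then have to share the pattern. Members in all libraries made up 80.9% to 82.4% without 1 library, 78.3% for channel subunits only and 77.8% with adjacent members counted once. The labels do not pair the replicate numbers. The pairs differed by 9 and 4 members, and replicate deviations of the groups correlated at 0.048 across 22427 entries, which are not independent. The planned promoter comparison was not run for lack of windows. With no read depth or peak score, absence cannot be told from weak signal.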
